A study of Mus musculus with 16 samples.

Results

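The testosterone effect on the mouse ovary was measured in separate mice during treatment and after washout, and the genes whose effect differed between these cohorts were sought among all genes. For each gene the difference was the effect on testosterone (On T minus its controls) minus the effect after washout (Post T minus its controls), on the log2 scale, over all 16 libraries. A value below 0 therefore means that the ratio of treated to control ovaries was higher after washout than on testosterone. Of 18833 genes with enough counts to be tested, among 55426 in the table, 612 (3.25%) passed edgeR's quasi-likelihood F test at an adjusted p of 0.05, and such a gene is termed called. The difference lay below 0 in 551 genes (2.93% of those tested) and above 0 in 61 (0.324%). Its median over all tested genes was 0.004.

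The mice were C57BL/6NHsd females, an inbred strain, and 1 ovary per mouse gave a poly(A) RNA library, with 4 mice in each of 4 groups. The On T mice received 0.9 mg testosterone enanthate, a slowly released ester, in weekly injections under the skin for 6 weeks from 9 to 10 weeks of age and were killed at 16 weeks while on treatment. The Post T mice received the same 6 weeks of injections, which were then stopped, and were killed at 24 to 28 weeks, 4 estrous cycles after cycling had resumed. Sesame oil alone was injected into the Control for On T mice, also 16 weeks old (the younger controls), and into the Control for Post T mice, 24 to 28 weeks old (the older controls). All mice were in diestrus, the quiet phase of the estrous cycle. No mouse was followed from treatment into washout, so no gene was seen to recover or reverse within an animal, and cohort, age and washout go together.

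Testosterone acts on several ovarian cell types and, by feedback, on the pituitary hormones that drive ovulation. When ovulation stops, new corpora lutea, the progesterone-making bodies left by ovulated follicles, are no longer formed. Macrophages of the ovary take up dying follicle and luteal cells and digest them in lysosomes, acidic compartments filled with proteases, lipases and sugar-cleaving enzymes. In ageing mouse ovaries some macrophages fuse into multinucleated cells that hold much lipid and lysosomal material. In whole tissue a change in the number of cells of a type and a change in the RNA per cell cannot be told apart.

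The libraries held 26598055 to 52659637 counts, and levels are given as CPM, counts relative to library size scaled by TMM. The floor, set at 3 counts, stood at 0.0571 to 0.117 CPM, which covers counting error only. On T library 2 and Control for Post T library 1 had the lowest mean correlation with the rest of their groups (0.9789 and 0.9791, against 0.9817 to 0.9881), and without both of them 761 genes were called. All libraries held ovarian markers, with summed levels of 5440 to 16600 CPM for granulosa cell markers and 332 to 790 CPM for oocyte markers. The lowest granulosa sum was that of On T library 2, against 12900 to 16600 CPM in the rest of its group. Smooth muscle genes summed to 4720 CPM in that library, against 2260 to 2650 CPM in the rest of its group. Markers of the oviduct and of cilia, a neighbouring tissue, came to 9.06 to 19.6 CPM.

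The 612 genes were split by which of their effects was itself called in the same fit. Of all tested genes, 799 rose (4.24%) and 947 fell (5.03%) on testosterone, and 1410 rose (7.49%) and 905 fell (4.81%) after washout. Genes with a called effect after washout only are termed newly changed, and they made up 407 of the 612 (66.5%), of which 388 rose and 19 fell. Genes with a called effect on testosterone only are termed recovered, and they numbered 100 (16.3%), of which 66 had fallen and 34 had risen. Reversed genes, with both effects called in opposite directions, numbered 21 (3.43%). Both effects had the same direction in 67 genes, larger after washout in 58 (9.48%) and larger on testosterone in 9 (1.47%), and neither effect was called in 17 (2.78%). An effect that was not called is not shown to be 0: in 328 of the 388 newly risen genes and 51 of the 66 recovered fallen genes the uncalled effect was under 0.5 in size. At the threshold, Npl (-0.87) and Tram1l1 (0.92) lay just inside it, and Ikzf1 (-0.95) and Lgals9 (-0.69) just outside.

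**Figure D1:**
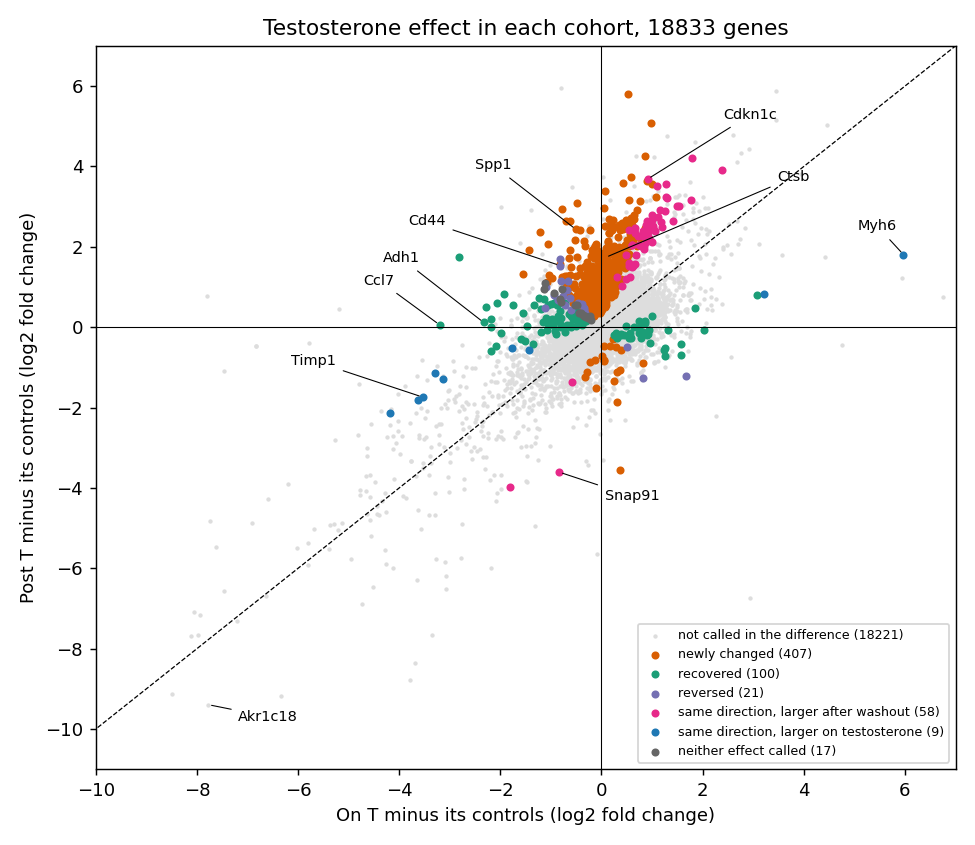
Log2 fold change on testosterone (x axis) against that after washout (y axis) for the 18833 genes tested, coloured by class, with the line of equal effects dashed. Most coloured genes lie above the line, and the 407 newly changed genes (orange) form a column near 0 on the x axis.

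A difference of effects can come from the treated groups, from the control groups, or from both. Between the treated groups, Post T minus On T, 1636 genes were higher (8.69%) and 864 lower (4.59%) after washout, and 586 of the 612 genes were called in this comparison. Between the older and younger controls, 0 genes were called (0% in either direction) by edgeR and 0 by limma on log2(TPM + 1), although 1892 had an unadjusted p under 0.05 and DESeq2 called 173. The 26 genes left were called in neither comparison. The newly risen genes had a median log2 difference of 1.42 between the treated groups and 0.1 between the controls. Control levels took a larger part in the few genes that fell anew after washout, with medians of -0.56 between treated groups and 0.42 between controls. The 612 genes were chosen by a difference that is made up of both comparisons. Their shares and medians in each comparison therefore follow in part from that choice and are no separate result.

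**Figure D2:**
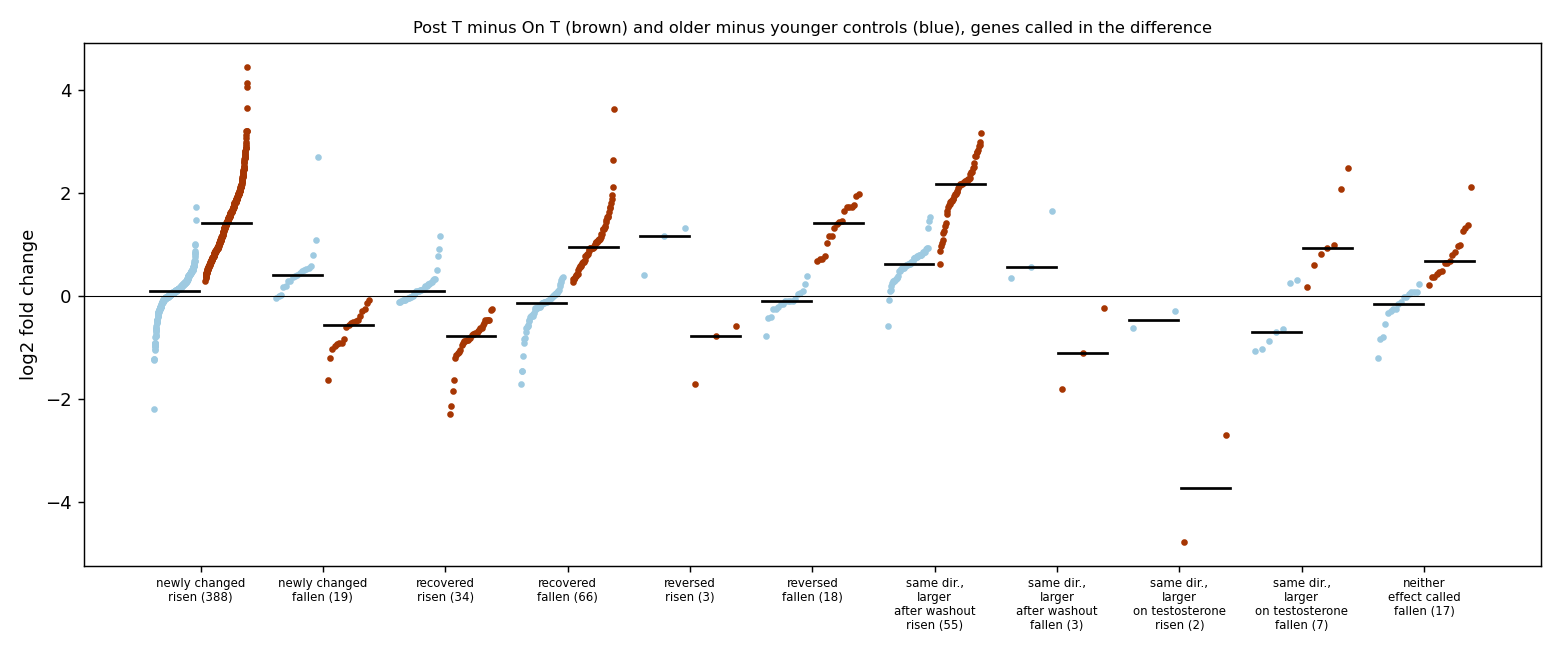
Log2 fold change of Post T minus On T (brown) and of the older minus the younger controls (blue) for the 612 called genes, sorted within each class, with the class median as a bar. In the 388 newly risen genes the brown points all lie above 0, while the blue points scatter around 0. The genes were chosen by a difference made up of both comparisons.

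Newly risen genes held most of the called members of the lysosomal and macrophage lists. Of the 24 tested genes of the list of lysosomal and multinucleated macrophage genes, 13 (54.2%) were called in the difference, all below 0, with 9 newly risen and 4 risen in both cohorts but more after washout. The list's median difference was -1.21, with 9 of its members called higher on testosterone and 21 after washout. Over all tested genes 4.24% and 7.49% were called higher. Of the 32 lysosomal enzyme and proton pump genes, 12 (37.5%) were called, all below 0, with 10 newly risen. Their median difference was -0.39. The list of 25 macrophage markers had 11 called (44%), all below 0, and a median of -1.29. Lists were drawn up with earlier results of these data known, and Cd68 stands in the enzyme and the macrophage list, so their counts are not separate results.

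**Figure D3:**
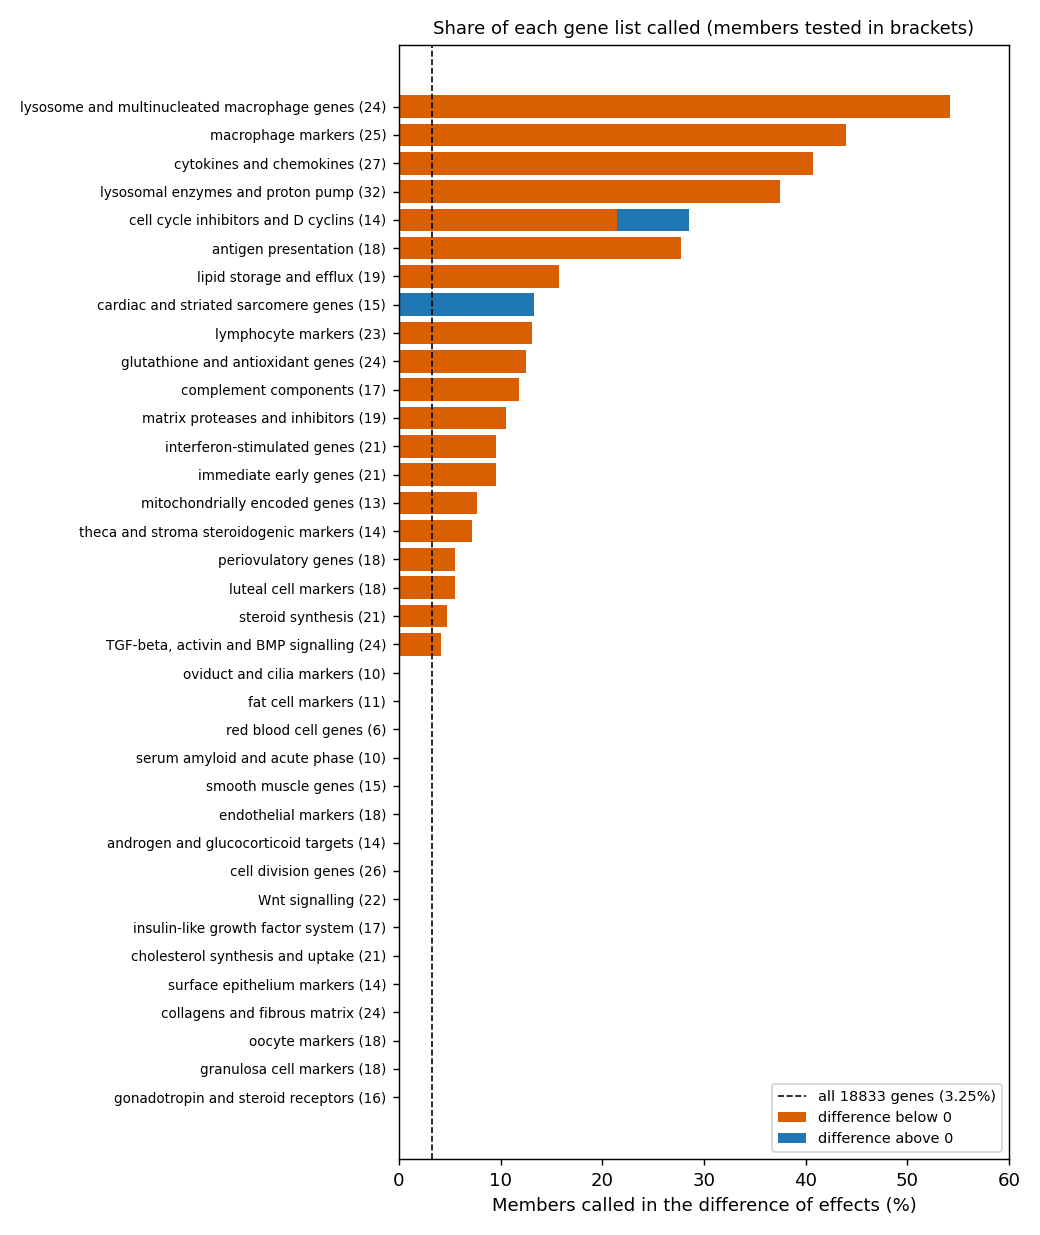
Share of the tested members of each gene list called in the difference of effects (x axis, %), coloured by its sign, with the share of all tested genes (3.25%) dashed. The lysosomal, macrophage and cytokine lists stand between 37.5% and 54.2%, and 16 lists have no called member.

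Ctsb encodes cathepsin B, a protease of the lysosome (GRCm38 chr14:63122462-63145923, plus strand). Its level was 927, 674, 901 and 735 CPM in the younger controls, 874, 945, 773 and 815 on testosterone, 942, 907, 1070 and 818 in the older controls, and 2870, 2910, 3930 and 2690 after washout. The Post T libraries all lay above every other library, and the On T libraries lay within or just above the range of their controls. The log2 effect was 0.07 (SE 0.13) on testosterone and 1.73 (SE 0.14) after washout, a difference of -1.66 (SE 0.19, edgeR adjusted p = 0.000508). Ctsb shares 12.8% of its exon length with Fdft1 on the opposite strand, and whether counting used strand is not given in the sources used here.

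Psap encodes prosaposin, the precursor of small proteins that help lysosomal enzymes break down sphingolipids (chr10:60277627-60302597, plus strand). It measured 1770, 1840, 1760 and 1710 CPM in the younger controls, 1690, 1800, 1340 and 1730 on testosterone, 2130, 1940, 2280 and 2070 in the older controls, and 4680, 4680, 5970 and 4120 after washout. The Post T libraries lay above all others, and the older controls also lay above both younger groups. The difference was -1.32 (SE 0.16, edgeR adjusted p = 0.000632). Atp6v1a encodes a catalytic subunit of the proton pump that acidifies lysosomes (chr16:44085402-44139705, minus strand). Its levels of 101, 91.2, 94 and 90.1 CPM in the younger controls and 96.2, 87.9, 93.1 and 88.2 on testosterone overlapped, whereas 113, 104, 99.7 and 101 in the older controls stood below 176, 176, 165 and 177 after washout. The rise was smaller than that of the proteases but the replicates were tight, with a difference of -0.78 (SE 0.093, edgeR adjusted p = 0.000509).

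Other lysosomal members behaved alike in sign. The enzymes Gla, Gusb, Man2b1 and Tpp1 had differences of -1.23, -0.71, -0.73 and -0.49, and the pump subunits Atp6v1b2, Atp6v0a1 and Atp6v0c had -0.97, -0.52 and -0.97. Tfe3, which encodes a transcription factor of lysosomal genes, changed by -0.23 on testosterone, which did not pass the test, and by 0.27 after washout, which did, with a difference of -0.50. Lamp1 (a lysosomal membrane protein) differed by -0.55, Lipa (the lysosomal acid lipase) by -1.29 and Ctsz (a lysosomal protease) by -1.04. Ctsd, another lysosomal protease, had effects of 0.60 and 2.04, both called. Lgmn, which encodes the protease legumain, went another way: it fell on testosterone (-1.99) and its effect after washout was -0.14, which did not pass.

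Many lysosomal genes carry the letters TCACGTG near their start, the core of the element bound by the factors TFEB and TFE3, and the promoters of 3 newly risen lysosomal genes that hold them are shown. The windows are the 250 bases before the RefSeq start of Lamp1 (chr8:13158911-13159160, plus strand), Gla (the enzyme alpha-galactosidase A, chrX:134601006-134601255, minus strand) and Atp6v1a (chr16:44139260-44139509, minus strand), from the table for GRCm38.p6. Capitals mark TCACGTG on either strand, and the run TCACGTGA holds it on both strands at once.
Lamp1: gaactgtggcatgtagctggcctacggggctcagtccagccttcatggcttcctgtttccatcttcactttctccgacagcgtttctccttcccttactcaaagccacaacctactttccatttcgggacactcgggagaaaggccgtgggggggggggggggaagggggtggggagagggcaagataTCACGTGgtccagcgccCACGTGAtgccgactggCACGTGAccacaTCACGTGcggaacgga
Gla: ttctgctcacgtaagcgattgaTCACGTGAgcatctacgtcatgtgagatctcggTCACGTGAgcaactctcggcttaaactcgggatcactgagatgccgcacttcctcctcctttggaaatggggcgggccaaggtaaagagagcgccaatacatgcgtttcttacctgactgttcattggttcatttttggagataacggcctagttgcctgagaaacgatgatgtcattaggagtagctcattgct
Atp6v1a: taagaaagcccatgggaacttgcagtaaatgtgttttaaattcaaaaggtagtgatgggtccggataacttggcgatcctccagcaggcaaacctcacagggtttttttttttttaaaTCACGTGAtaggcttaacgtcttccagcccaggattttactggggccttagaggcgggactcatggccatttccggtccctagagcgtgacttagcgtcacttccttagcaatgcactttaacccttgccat
Lamp1 holds 4 such runs, which begin at positions -62, -45, -28 and -16 from the start, Gla holds 2, at -228 and -195, and Atp6v1a holds 1, at -132.

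Over windows of 250 bases before to 50 after a start, the letters stood in 820 of 12715 tested genes with a window (6.45%). They stood in 7 of 25 lysosomal enzyme and pump genes (28.0%), and in 2 of the 9 newly changed among these (22.2%). In the list of lysosomal and multinucleated macrophage genes they stood in 2 of 19 (10.5%), and in 1 of the 6 newly changed among these (16.7%). Over all newly risen genes the share was 20 of 291 (6.87%), close to that of all tested genes, and outside both lysosomal lists it was 17 of 276 (6.16%). Recovered genes held them in 8 of 78 (10.3%) and reversed genes in 0 of 15. A match describes the letters only, and the windows of Psap and Spp1 hold none.

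Spp1, which encodes osteopontin, a secreted adhesion protein of activated macrophages and other cells (chr5:104435118-104441050, plus strand), had the largest difference in size among called members of the multinucleated macrophage list. It measured 30.8, 23.2, 48.6 and 19.5 CPM in the younger controls, 25.4, 23.4, 17 and 20.3 on testosterone, 15.2, 34, 22.6 and 16.4 in the older controls, and 101, 147, 125 and 103 after washout. The first 3 groups overlapped and Post T lay above them all. The effect was -0.50 (SE 0.27) on testosterone and 2.43 (SE 0.28) after washout, a difference of -2.94 (SE 0.39, edgeR adjusted p = 0.000676). Of 100-base windows of Spp1 transcripts, 5.85% also occur in Gm42793, and 18.8% of its exon length overlaps that gene on the same strand, so part of its reads is uncertain.

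Fcgr4 encodes a receptor for the constant part of IgG on macrophages and neutrophils. Its level was 2.81, 2.54, 2.66 and 2.08 CPM in the younger controls, 3.81, 4.32, 2.74 and 3.32 on testosterone, 3.12, 4.87, 4.03 and 2.46 in the older controls, and 19.4, 23.3, 30.1 and 18.5 after washout. The On T range overlapped that of its controls by a narrow margin, and the difference was -2.17 (SE 0.3, edgeR adjusted p = 0.000739). Laptm5, which encodes a membrane protein of lysosomes in blood cells, was called in both cohorts, rising by 0.66 (SE 0.19) and 2.34 (SE 0.2), with a difference of -1.69 (SE 0.27, edgeR adjusted p = 0.00187). Csf1r, the receptor for the macrophage growth factor CSF1, had effects of -0.25, which did not pass, and 1.04, which did. Clec4e, a receptor for microbial and cell-debris lipids, and Cd300lf, an inhibitory lipid receptor of myeloid cells, had differences of -3.41 (SE 0.69) and -3.26 (SE 0.43), with edgeR adjusted p of 0.00972 and 0.000676. Clec4e did not exceed 0.819 CPM outside the Post T group, in which it reached 2.28 to 5.26. In the older controls it was 0.0779 to 0.218 CPM, near the level that 3 counts give there (0.0737 to 0.117). The size of its difference is therefore uncertain, and it ranged from -3.71 to -1.15 over the alternative settings.

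The list of macrophage markers holds Fcgr4 and Laptm5, so its summed level is not separate from them. The sum was 502 to 700 CPM in the younger controls and 730 to 1360 on testosterone. In the older controls it was 701 to 1430 CPM, and after washout 4290 to 6690. Of the 25 markers, 7 were called higher and 1 lower on testosterone, and 17 higher and 2 lower after washout, so that not all moved with the sum. Over all tested genes 4.24% were higher and 5.03% lower on testosterone, and 7.49% higher and 4.81% lower after washout. Cx3cr1 was lower in both cohorts (-0.83 and -0.86) and Cd163 after washout (-1.92), a pair named after their values were seen. Sums over other lists moved in the same libraries. The mitochondrially encoded genes summed to 19700 to 23300 CPM in the younger controls, 17300 to 24900 on testosterone, 19200 to 22000 in the older controls and 24000 to 31400 after washout. The fat cell markers summed to 90.1 to 185 CPM in the younger controls, 84.1 to 123 on testosterone, 98.6 to 139 in the older controls and 179 to 210 after washout, with Fabp4 called higher and Acsl1 lower after washout. The part of these 3 sums in the rise of the lysosomal genes was not tested. Adgre1, which encodes F4/80, a defining surface marker of mouse macrophages, moved far less than the sum. It measured 15.4, 12.3, 13.5 and 16.2 CPM in the younger controls, 16.3, 18.7, 9.45 and 14 on testosterone, 13.1, 13.9, 23.3 and 13.5 in the older controls, and 23.3, 22.4, 22.2 and 22.2 after washout. Its difference was -0.47 (SE 0.28, edgeR adjusted p = 0.479), and neither effect passed. Between the treated groups Adgre1 was called higher after washout (log2 fold change 0.625, edgeR adjusted p = 0.0429). Gpnmb, a membrane glycoprotein of lipid-laden macrophages, rose in both cohorts, from 17.2 to 58.7 CPM in the younger controls to 143 to 284 on testosterone, and from 74.7 to 169 in the older controls to 1560 to 2300 after washout. Its effects of 2.68 (SE 0.34) and 4.12 (SE 0.36) differed by -1.44 (SE 0.45), which missed the threshold (edgeR adjusted p = 0.107) and passed it in 3 of 25 alternative settings.

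**Figure D4:**
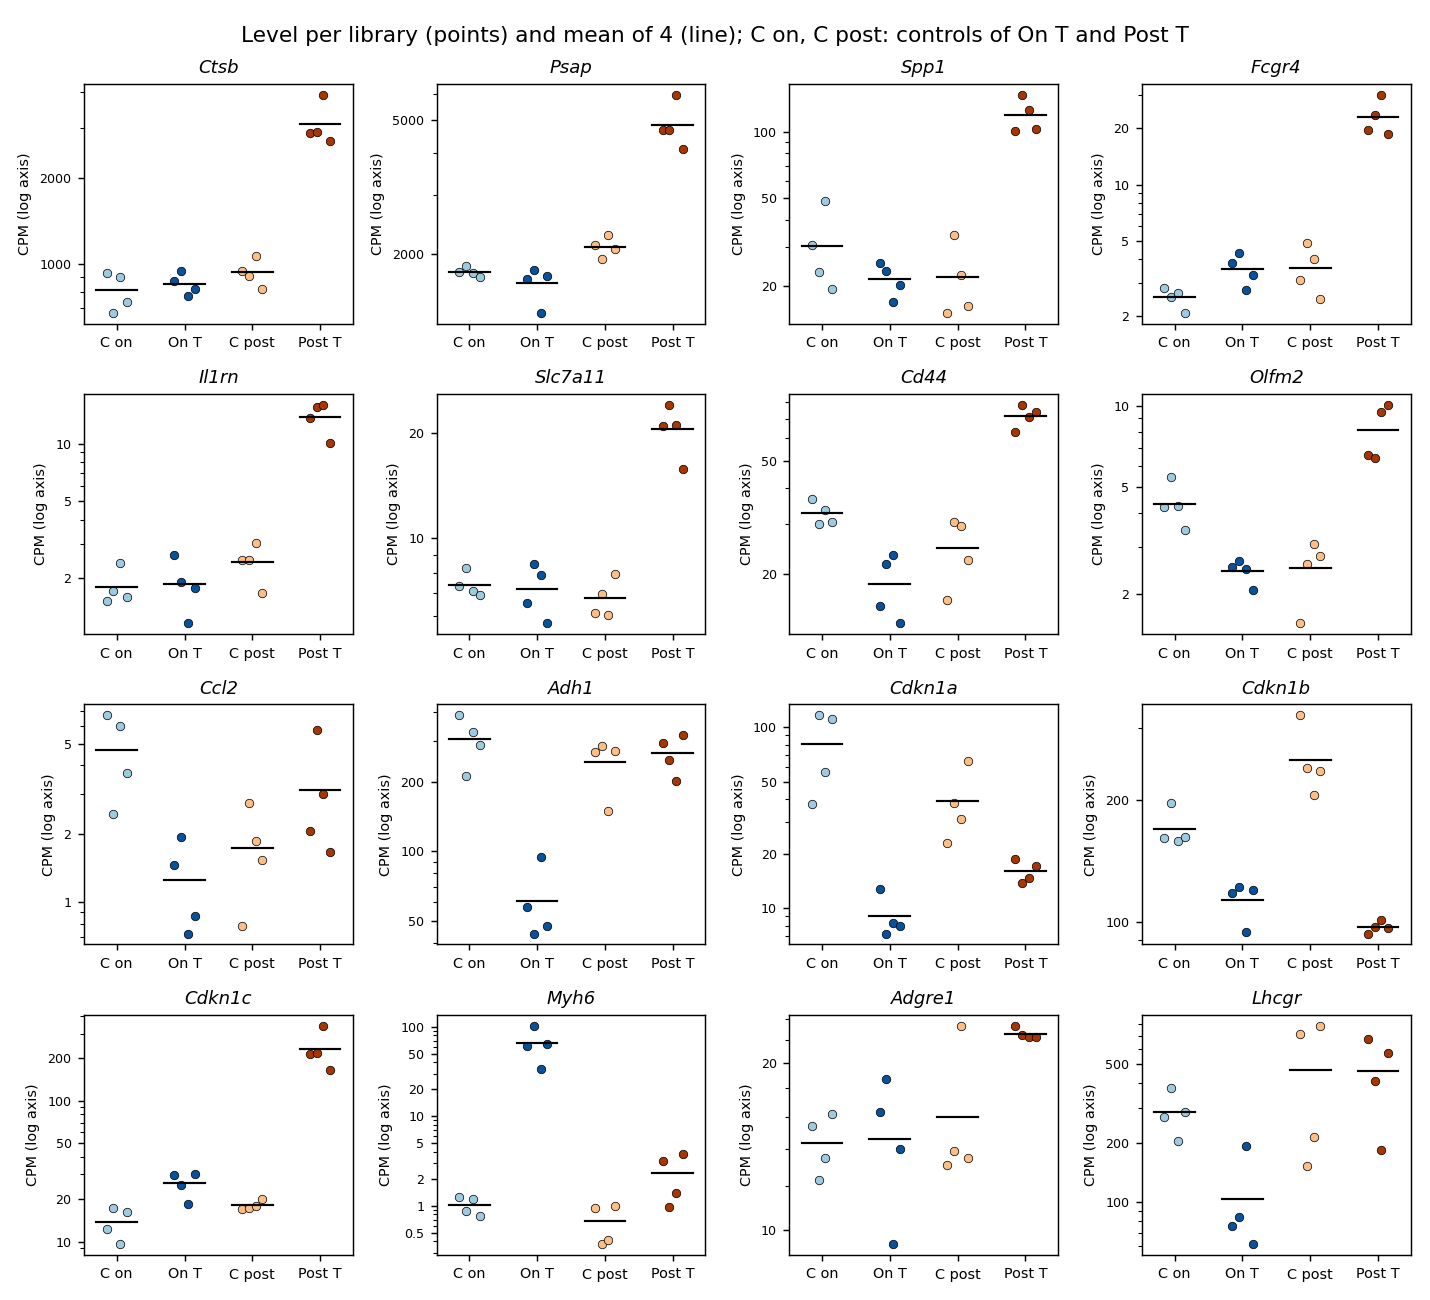
Level of 16 genes in every library (points, CPM on a log axis) with the mean of 4 libraries (bar), by group. Ctsb, Psap, Spp1, Fcgr4, Il1rn and Slc7a11 are highest in Post T, whereas Ccl2 and Adh1 are low in On T, and Cdkn1b is high in the older controls.

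Cytokine genes divided between newly risen and recovered. Of 27 tested, 11 (40.7%) were called, all below 0, with a median difference of -1.26, and 6 were newly risen and 5 recovered. The newly risen were Il1a, Il1rn, Ccl3, Ccl6, Cxcl10 and Cxcl16. Il1rn encodes the natural antagonist of the interleukin-1 receptor, and it measured 1.51, 1.7, 2.4 and 1.58 CPM in the younger controls, 2.63, 1.9, 1.16 and 1.76 on testosterone, 2.49, 2.47, 3.02 and 1.67 in the older controls, and 13.6, 15.6, 15.9 and 10.1 after washout. Post T again stood clear of the other 3 groups (difference -2.45, SE 0.35, edgeR adjusted p = 0.000849). Il1a, an agonist of the same receptor, had a difference of -2.38. Without On T library 4 the count of called cytokines fell to 5, and without On T library 2 and Control for Post T library 1 it was 9.

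The 5 recovered cytokines, Ccl2, Ccl7, Ccl12, Tgfb1 and Il18, had fallen on testosterone. Ccl2 encodes a chemokine that draws monocytes out of the blood (chr11:82035571-82037453, plus strand), and Ccl7 and Ccl12 encode close relatives of it. Ccl2 measured 6.67, 2.44, 5.98 and 3.71 CPM in the younger controls, 1.45, 1.93, 0.722 and 0.866 on testosterone, 0.779, 2.72, 1.86 and 1.52 in the older controls, and 2.06, 5.73, 2.99 and 1.65 after washout. All On T libraries lay below their controls, but they overlapped the older controls, and Post T overlapped its controls too. Its effects were -1.92 (SE 0.45) and 0.84 (SE 0.44), a difference of -2.76 (SE 0.63, edgeR adjusted p = 0.0211), and the older controls stood 1.45 log2 units below the younger ones (log2 fold change -1.45, edgeR adjusted p = 0.26). Ccl7 had effects of -3.20 (SE 0.56) and 0.06 (SE 0.51) and the same shift between controls (-1.45, edgeR adjusted p = 0.31). Its call was lost in 5 of 25 settings, and that of Ccl2 in 1, without On T library 4 (edgeR adjusted p = 0.0523). Tgfb1, transforming growth factor beta 1, was more abundant: 68.6, 94.3, 87.4 and 94.6 CPM in the younger controls, 49.3, 54, 39.2 and 46.8 on testosterone, 60.3, 68.8, 69.8 and 71.7 in the older controls, and 82.8, 77.7, 98.4 and 68.3 after washout. It fell on testosterone without overlap, and its difference was -1.14 (SE 0.18, edgeR adjusted p = 0.00153).

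Antigen presentation genes had 5 of 18 called (27.8%), all below 0. H2-D1, a class I histocompatibility heavy chain, rose in both cohorts (0.55, SE 0.16, and 1.60, SE 0.16), with 211 to 262 CPM in the younger controls, 258 to 435 on testosterone, 267 to 357 in the older controls and 718 to 1150 after washout. Its difference was -1.06 (SE 0.22, edgeR adjusted p = 0.0126), and 3.59% of its 100-base windows occur in other genes, as is usual for this gene family. Psmb8, an inducible proteasome subunit that cuts peptides for display, and B2m, the light chain of class I, were newly risen with differences of -0.89 and -0.81. H2-DMb1, which helps to load class II molecules, was also newly risen (-0.84), and Tap2, a peptide transporter, was recovered (-0.53).

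Lymphocyte markers had 3 of 23 called (13%). Ptprc, the CD45 phosphatase of all white blood cells, was newly risen, with 10.1 to 14.3 CPM in the younger controls, 11.3 to 16 on testosterone, 12.9 to 19 in the older controls and 41.4 to 53.9 after washout (difference -1.31, SE 0.21, edgeR adjusted p = 0.00203). Trbc2, which encodes part of the T cell antigen receptor, was newly risen (-0.97). Il7r, the receptor for interleukin 7, rose in both cohorts (1.53 and 3.01), and its call in the difference was lost in 10 of 25 settings. The summed lymphocyte markers came to 34.1 to 45.4 CPM in the younger controls, 36.3 to 55.1 on testosterone, 62.1 to 67.5 in the older controls and 133 to 181 after washout. Much of that sum came from Ptprc, which is not limited to lymphocytes, and Il7r. Their Post T means were 48.3 and 45.7 CPM, within a mean sum of 157.

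Lipid storage and efflux genes had 3 of 19 called (15.8%), Abcg1, Cd36 and Nr1h3, all newly risen. Abcg1 exports cholesterol from macrophages, and its level was 13.6 to 15.6 CPM in the younger controls, 13.4 to 23.5 on testosterone, 17.2 to 26.3 in the older controls and 63.1 to 87.4 after washout (difference -1.38, SE 0.24, edgeR adjusted p = 0.00309). Cd36, a fatty acid and scavenger receptor, had effects of 0.62 (SE 0.19, edgeR adjusted p = 0.0581) and 2.18 (SE 0.2), so its place among the newly changed rests on a near miss on testosterone. Nr1h3, a nuclear receptor for oxidised cholesterol, differed by -1.23. Of 24 glutathione and antioxidant genes, Slc7a11, Gstm6 and Gsta3 were called (12.5%), all newly risen. Slc7a11, the cystine importer that feeds glutathione synthesis, measured 7.34, 8.24, 7.08 and 6.92 CPM in the younger controls, 6.57, 8.48, 7.86 and 5.74 on testosterone, 6.15, 6.96, 6.07 and 7.91 in the older controls, and 20.9, 24, 21.1 and 15.8 after washout. The first 3 groups overlapped in full, and the difference was -1.64 (SE 0.21, edgeR adjusted p = 0.000656).

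By size, Mgat4c led the newly risen genes among those named by rule, with a difference of -3.59 (SE 0.57, edgeR adjusted p = 0.0017). Genes named for the size of their difference had to show no overlap between treated and control libraries in each called effect. For these genes such a gap is therefore no separate result. It encodes a relative of the enzymes that branch sugar chains on proteins, and its level was 9.56 to 26.3 CPM in the younger controls, 4.13 to 12.9 on testosterone, 5.02 to 14.8 in the older controls and 34.6 to 68.5 after washout. Its effect on testosterone, -1.22 (SE 0.4, edgeR adjusted p = 0.0706), missed the threshold, so that Mgat4c lies close to the reversed class. Gdf3, a growth factor of the TGF-beta family, stayed at or under 0.565 CPM outside Post T, where it was 0.789 to 2.19 (difference -3.34, SE 0.59, edgeR adjusted p = 0.00359). On testosterone it was 0.0655 to 0.116 CPM, near the level that 3 counts give in those libraries (0.0571 to 0.0982), and the effect there was -1.43 (SE 0.48, edgeR adjusted p = 0.0754). The size of its difference is therefore uncertain, and it was -0.89 on the log2(TPM + 1) scale in limma.

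The 19 newly fallen genes were few and mostly low in level. A2m, alpha-2-macroglobulin, an inhibitor of proteases, had the largest difference of those named (3.91, SE 1, edgeR adjusted p = 0.0408), but it turned on its controls. The older controls measured 12.2, 0.874, 5.15 and 0.639 CPM and the Post T libraries 0.319, 0.416, 0.339 and 0.496, while both younger groups lay between 0.458 and 1.18. Its call was lost in 16 of 25 settings. Hr, a nuclear corepressor, fell from 8.26, 2.53, 3.14 and 2.85 CPM in the older controls to 1.06, 1.25, 1.15 and 1.15 after washout, and lay between 2 and 4.35 in both younger groups (difference 2.16, SE 0.48, edgeR adjusted p = 0.0182). Grm7, a glutamate receptor, and Gabra4, a subunit of the receptor for the inhibitory transmitter GABA, had differences of 1.69 (SE 0.36) and 1.44 (SE 0.27). On the log2(TPM + 1) and log2(TPM + 0.1) scales the calls of Hr and Grm7 were lost.

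Among the 66 genes recovered from a fall, with median effects of -0.92 on testosterone and 0.16 after washout, Adh1 was the most abundant of those named. It encodes an alcohol dehydrogenase that also oxidises retinol (chr3:138260991-138290698, plus strand), and it measured 388, 212, 330 and 289 CPM in the younger controls, 57, 43.9, 94 and 47.4 on testosterone, 270, 286, 149 and 272 in the older controls, and 293, 249, 202 and 319 after washout. On T stood below all other libraries and the other 3 groups overlapped. Its effects were -2.33 (SE 0.26) and 0.12 (SE 0.25), a difference of -2.45 (SE 0.36, edgeR adjusted p = 0.00106). Gpr176, an orphan receptor, had 2.29 to 4.85 CPM in the younger controls, 0.52 to 1.02 on testosterone, 0.818 to 2.55 in the older controls and 2.14 to 3.21 after washout (difference -2.78, SE 0.45, edgeR adjusted p = 0.00196). Gadd45a, a stress-induced inhibitor of the cell cycle, fell by 1.60 on testosterone and had an effect of -0.30 (SE 0.18) after washout.

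Jun, a growth-induced transcription factor, was recovered too, with effects of -0.96 and 0.06. The list of immediate early genes, which also rise during dissection, had 2 of 21 called (9.52%), Jun and Atf3, and Atf3 was newly risen (-2.34). Its summed level was 1260 to 1990 CPM in the younger controls, 844 to 948 on testosterone, 1430 to 2050 in the older controls and 1130 to 1380 after washout, and its part in the difference of other genes was not tested.

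The 34 genes recovered from a rise had median effects of 0.82 and -0.16. Pdia2, a protein disulfide isomerase of the endoplasmic reticulum, had the largest difference of those named. It measured 1.25, 0.78, 1.28 and 0.711 CPM in the younger controls, 9.99, 9.17, 5.61 and 9.41 on testosterone, 0.935, 1.06, 1.1 and 0.86 in the older controls, and 1.57, 1.25, 1.56 and 2.53 after washout. The On T libraries stood far above all others, and the Post T libraries lay above their controls by a smaller step that missed the threshold (0.81, SE 0.26, edgeR adjusted p = 0.054), against 3.07 (SE 0.26) on testosterone. Thus Pdia2 is recovered by the rule without being shown to equal its controls. Kcnip1, a partner of potassium channels, had effects of 2.02 (SE 0.34) and -0.06 (SE 0.36), and its call in the difference was lost in 8 of 25 settings. Sycp3, a part of the meiotic chromosome axis, rose from 0.921 to 1.25 CPM to 2.21 to 3.5 on testosterone, and measured 0.935 to 1.56 in the older controls and 0.418 to 1.24 after washout. As 52.2% of its exon length overlaps Chpt1 on the opposite strand, its level is uncertain, and so is that of the antisense gene Atcayos (difference 2.00, SE 0.43), 9.87% of which overlaps Atcay.

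In 18 of the 21 reversed genes a fall on testosterone stood against a rise after washout, with median effects of -0.71 and 0.71. Cd44 encodes the receptor for hyaluronan, a sugar polymer of the matrix that also forms around ovulating eggs (chr2:102811141-102901665, minus strand). Its level was 36.6, 30, 33.6 and 30.6 CPM in the younger controls, 15.5, 21.8, 23.4 and 13.5 on testosterone, 16.3, 30.6, 29.6 and 22.4 in the older controls, and 63.2, 78.4, 71.3 and 74.2 after washout. Treated and control libraries did not overlap in either cohort, which the rule that named Cd44 required. Of the 21 reversed genes, 15 met that requirement, which asks for a gap in both cohorts. Where a gap in 1 cohort was enough, 396 of the 407 newly changed and 93 of the 100 recovered genes met it. The effects were -0.82 (SE 0.19) and 1.53 (SE 0.19), a difference of -2.35 (SE 0.26, edgeR adjusted p = 0.000508). Rnf128, a ubiquitin ligase, showed the same with little shift between controls (0.05). It measured 35.7, 21, 28.6 and 27.4 CPM in the younger controls, 19.8, 13.7, 20.1 and 16.4 on testosterone, 29.6, 31.5, 28.5 and 27 in the older controls, and 52.3, 57.1, 62 and 48.9 after washout. By the same rule neither pair overlapped, and the difference was -1.60 (SE 0.2, edgeR adjusted p = 0.000656).

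Olfm2, a secreted olfactomedin-domain protein, had the largest difference of the fallen reversed genes named, -2.52 (SE 0.3, edgeR adjusted p = 0.000509). Its level was 4.21, 5.43, 4.24 and 3.45 CPM in the younger controls, 2.53, 2.65, 2.48 and 2.08 on testosterone, 1.56, 2.59, 3.08 and 2.78 in the older controls, and 6.59, 6.42, 9.54 and 10.1 after washout. The On T libraries lay in the range of the older controls. Rec8, a meiotic cohesin subunit, had effects of -0.94 (SE 0.26) and 0.81 (SE 0.25), near the threshold in each (edgeR adjusted p = 0.03 and 0.0479). Other genes of this kind included Akr1b8, Anxa1, Apbb1ip, Arpc1b, Atp13a2, Cd38, Dpep2, Gm10252, Ncf1, Prr13, Sgpl1, Slc11a2 and Slc37a2, listed after their values were seen. Ncf1, a subunit of the phagocyte oxidase, had effects of -0.62 and 0.72.

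The 3 genes that rose on testosterone and fell after washout included Gabrb1 and Tbc1d4. Gabrb1, a GABA receptor subunit (chr5:71658113-72149037, plus strand), measured 1.36, 1.49, 0.92 and 1.55 CPM in the younger controls, 2.04, 3.67, 1.88 and 1.88 on testosterone, 4.09, 3.34, 2.58 and 3.29 in the older controls, and 1.2, 1.22, 1.46 and 1.65 after washout. Its controls differed more than its treated groups (1.32 and -0.77), the former without passing the test (edgeR adjusted p = 0.12). Gabra4, newly fallen, is its neighbour on the opposite strand (chr5:71569749-71658308), and the pair overlap in 0.332% of the exon length of Gabrb1. The call of Gabrb1 was lost on both TPM scales, on which its difference fell as low as 0.306.

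The 58 genes with effects in the same direction but larger after washout were 55 that rose and 3 that fell. Cdkn1c, an imprinted inhibitor of cyclin-dependent kinases (chr7:143458339-143461050, minus strand), measured 12.3, 17.3, 9.63 and 16.1 CPM in the younger controls, 29.9, 25.1, 18.6 and 30.3 on testosterone, 17.1, 17.3, 18 and 20.2 in the older controls, and 213, 219, 341 and 164 after washout. It rose in both cohorts, by 0.91 (SE 0.22) and 3.69 (SE 0.23), a difference of -2.77 (SE 0.3, edgeR adjusted p = 0.000508). Neither pair overlapped, as the rule by size required. The annotated gene Gm44732 covers 30.7% of its exon length on the opposite strand. Stac2, an adaptor of calcium channels, had a like pattern at 0.984 to 1.47, 1.82 to 3.2, 1.44 to 2.13 and 15 to 27.1 CPM in the same order of groups (difference -2.42, SE 0.31, edgeR adjusted p = 0.000656). Clca3a2, of a family of chloride channel regulators, had a difference of -2.42 (SE 0.59), but 7.94% of its windows recur in its relatives and its call was lost in 8 of 25 settings.

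The 3 that fell were Snap91, Lipg and Cdkn1b. Snap91, a coat assembly protein of synaptic vesicles, measured 1.53, 2.2, 1.74 and 1.89 CPM in the younger controls, 0.99, 0.917, 1.18 and 1.01 on testosterone, 6.08, 4.99, 8.17 and 3.96 in the older controls, and 0.516, 0.297, 0.339 and 0.699 after washout. The older controls lay above the younger ones without overlap (1.66, edgeR adjusted p = 0.068), and the difference of effects was 2.77 (SE 0.37, edgeR adjusted p = 0.000676). Cdkn1b, an inhibitor of cyclin-dependent kinases, measured 161, 196, 158 and 162 CPM in the younger controls, 118, 122, 94.2 and 120 on testosterone, 323, 239, 206 and 236 in the older controls, and 93.6, 97.4, 101 and 96.5 after washout. The treated groups overlapped (-0.23, edgeR adjusted p = 0.25) and the control groups did not (0.57, edgeR adjusted p = 0.13). Thus its larger fall after washout stood beside a higher control level. Lipg, an endothelial-type lipase, had effects of -1.82 (SE 0.39) and -3.98 (SE 0.43), and its call was lost in 12 of 25 settings.

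Of the 9 genes changed more on testosterone, 7 fell, among them Adora1, Cdkn1a, Crybb1, Gpr39, Lrrfip1 and Timp1, some of which are listed after their values were seen. Crybb1 encodes a crystallin (chr5:112255815-112269585, plus strand). Its level was 6.87, 7.9, 9.91 and 8.26 CPM in the younger controls, 0.533, 0.589, 0.462 and 0.202 on testosterone, 2.84, 4.56, 2.78 and 5.55 in the older controls, and 1.4, 0.683, 0.441 and 0.992 after washout. Both treated groups lay below their controls, On T more so (-4.19, SE 0.36, and -2.14, SE 0.33), and the difference was -2.05 (SE 0.47, edgeR adjusted p = 0.0223), a call lost on log2(TPM + 0.1) and without Post T library 1. Timp1, an inhibitor of matrix proteases and a luteal marker, had effects of -3.54 and -1.74. Cdkn1a, which encodes the cell cycle inhibitor p21, had effects of -3.14 (SE 0.36) and -1.29 (SE 0.34), and its difference (-1.85, SE 0.48, edgeR adjusted p = 0.0456) was lost in 17 of 25 settings.

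With Cdkn1a, Cdkn1b, Cdkn1c and Gadd45a, the list of cell cycle inhibitors and D cyclins had 4 of 14 members called (28.6%), in 3 classes and both signs, and a median difference of -0.06. Those that rose and those that fell are all known as inhibitors of the cycle. Of 26 cell division genes, 0 were called in the difference or in either effect. Over all tested genes, 3.25% were called in the difference, 9.27% on testosterone and 12.3% after washout.

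Myh6 and Myh7, the heart muscle myosin heavy chains, were the genes that rose more on testosterone. Myh6 measured 1.27, 0.882, 1.2 and 0.763 CPM in the younger controls, 61, 103, 34 and 63.8 on testosterone, 0.935, 0.375, 0.414 and 0.983 in the older controls, and 3.19, 0.98, 1.39 and 3.77 after washout. On T exceeded every other library by a wide margin, and in Post T a smaller rise without full separation remained (5.97, SE 0.45, and 1.81, SE 0.47). The difference was 4.16 (SE 0.65, edgeR adjusted p = 0.00158), and 10.0% of the windows of Myh6 recur in Myh7. Myh7 had effects of 3.22 and 0.82.

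**Figure D5:**
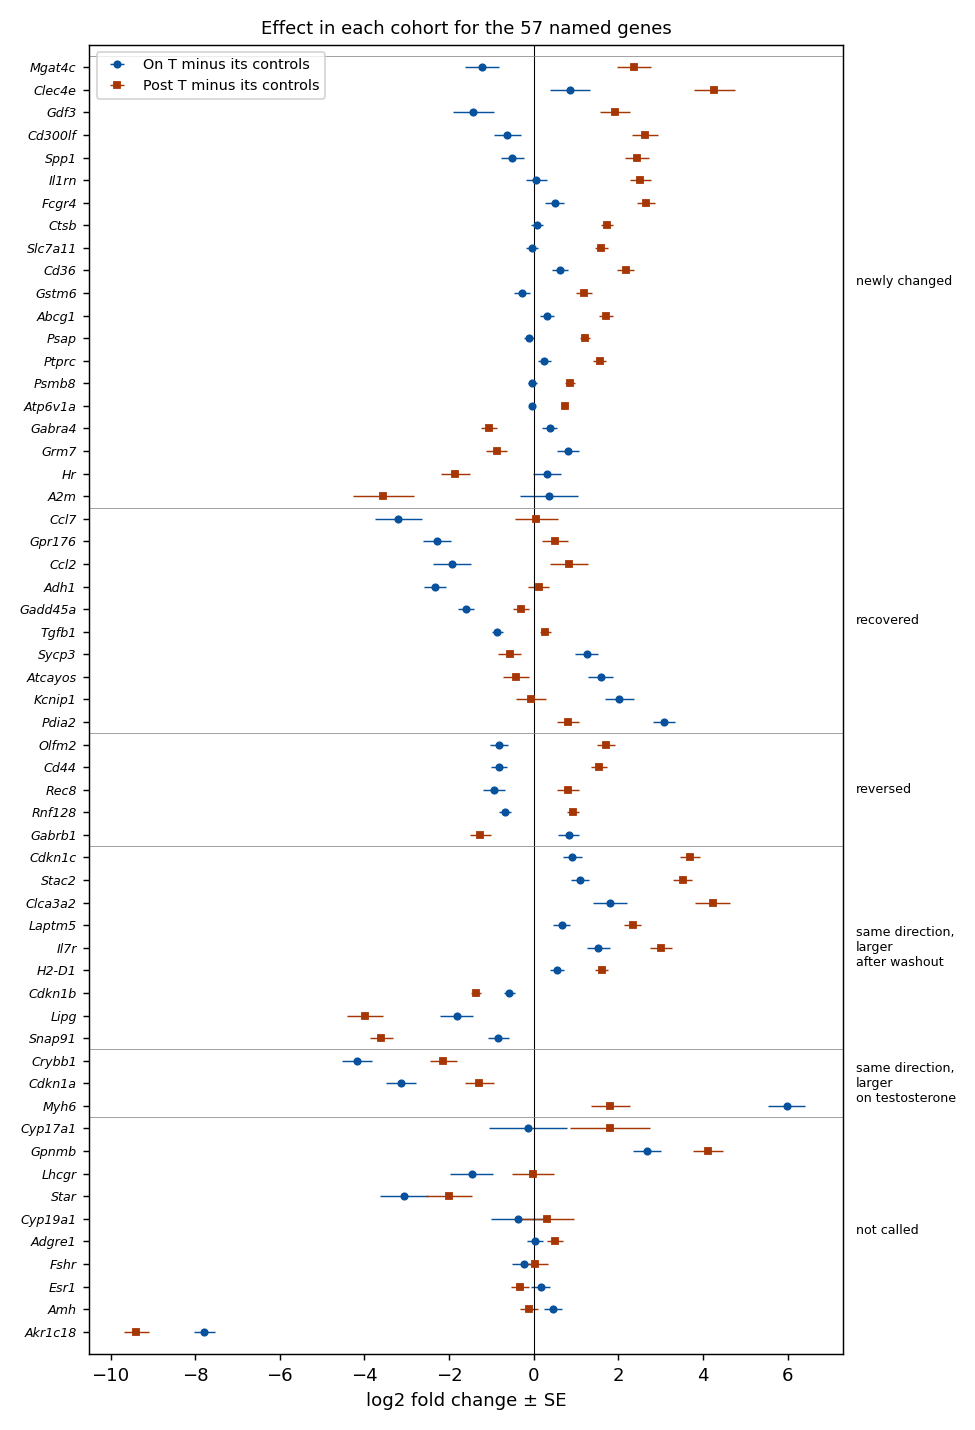
Log2 fold change with its standard error on testosterone (blue circles) and after washout (brown squares) for the 57 genes named by rule, by class. Newly changed genes have a called effect in brown only and recovered genes in blue only, although not every uncalled effect is near 0 (Mgat4c -1.22, Gdf3 -1.43), and reversed genes have the pair on either side of 0.

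Lists of ovarian hormone action and luteal function are read against the 3.25% of all tested genes called in the difference. None of the 16 gonadotropin and steroid receptor genes, 18 granulosa cell markers, 18 oocyte markers, 24 collagens and matrix fibres or 22 Wnt pathway genes was called in the difference. Their medians were 0.11, 0.12, -0.37, 0.05 and 0.05. At a share of 3.25%, lists of these sizes hold few called members or none, so the absence of calls is no result about them. Over all tested genes, 5.03% fell on testosterone and 4.81% after washout. Of 18 luteal markers, 10 fell on testosterone and 9 after washout, and Timp1 was called in the difference (5.56%). Steroid synthesis had 1 of 21 called (4.76%), Por, the electron donor of steroid-making P450 enzymes, with -0.41 and 0.36, neither of which was called. Cholesterol synthesis and uptake had 0 of 21 called in the difference, although 9 fell after washout and 0 on testosterone, and its median difference was 0.71.

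Akr1c18, which encodes an enzyme that inactivates progesterone, fell from 105 to 189 CPM to 0.458 to 1.04 on testosterone and from 113 to 161 to 0.113 to 0.27 after washout. Its effects of -7.78 (SE 0.26) and -9.39 (SE 0.29) differed by 1.61 (SE 0.43), which missed the threshold (edgeR adjusted p = 0.0522) and passed it in 6 of 25 settings. The Post T levels were not far above the level that 3 counts give there (0.0677 to 0.102 CPM). The size of the difference is therefore uncertain, and it ranged from 0.524 to 1.79 over the settings. Star, the protein that brings cholesterol into mitochondria for steroid synthesis, fell in both cohorts (-3.06, SE 0.56, and -2.01, SE 0.54), with a difference of -1.05 (SE 0.74, edgeR adjusted p = 0.573). Lhcgr, the receptor for luteinising hormone, had effects of -1.46 (SE 0.51) and -0.02 (SE 0.49), neither of them called. Its On T libraries (61.3 to 192 CPM) lay below their controls (204 to 381), while Post T (184 to 671) overlapped its controls (153 to 786), and the difference of -1.44 (SE 0.7) did not pass (edgeR adjusted p = 0.37). For Cyp17a1, which makes androgens, and Cyp19a1, which makes estrogens, the SE of the difference was 1.3 and 0.9, so that differences of several fold could not have been detected. Fshr, Esr1 and Amh had differences of -0.26 (SE 0.43), 0.48 (SE 0.31) and 0.57 (SE 0.3), none of them called.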

How the data were processed

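Poly(A) RNA of 16 mouse ovaries was sequenced as paired ends from directional libraries, per the labels' protocols. The tools STAR 2.7.8a, RSEM 1.3.3, cutadapt 2.3 and FastQC 0.11.8 and build GRCm38 are taken from the submitters' processing notes. The deposited expected counts are the authors' RSEM estimates per gene, not normalised, and were rounded to whole numbers. TPM values, which the authors scaled for gene length and library size, were also deposited and served as an alternative. FPKM values were not used here. Annotation release and strand setting are not given in the sources used here.

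In R 4.3.3, edgeR 4.0.16 fitted all 16 libraries with a mean per group (filterByExpr minimum count 10, TMM), and contrasts were tested by its quasi-likelihood F test with Benjamini-Hochberg adjustment at 0.05. Standard errors follow from the fold change and its F statistic. The common biological coefficient of variation was 0.179. Positions came from GENCODE for GRCm38 (99.93% of tested genes) and promoters from RefSeq. Genes were named by 3 rules: the largest differences per class and direction among genes with a group mean of at least 1 CPM and no overlap between groups in each called effect, the 2 smallest p of each list with 3 or more called members, and 12 fixed genes whatever their values. The text draws on 57 of them, and the others are not reported here. List members called beyond these were named after their values were seen. Members and lists were chosen with earlier results of these data known. Alternatives were other size factors and filters, DESeq2 1.42.0, and limma 3.58.1 on log2(TPM + 1) and log2(TPM + 0.1). Further ones were a replicate block, age centred within each cohort, other thresholds and leaving out libraries. The age gap between the cohorts was not adjusted for. The scripts were tested on simulated data.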

Additional observations from a re-analysis of the deposited data

Results flagged for a closer look

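By the test of the difference, the testosterone effect differed between the cohorts in 47 of the named genes. All of them but Myh6 were named by rules that took only called genes, so their calls are no separate result. Each is given with its log2 difference (effect on testosterone minus effect after washout). The newly risen were Mgat4c (-3.59), Clec4e (-3.41), Gdf3 (-3.34), Cd300lf (-3.26), Ctsb (-1.66), Spp1 (-2.94), Atp6v1a (-0.78), Psap (-1.32), Fcgr4 (-2.17), Il1rn (-2.45), Ptprc (-1.31), Psmb8 (-0.89), Abcg1 (-1.38), Cd36 (-1.56), Slc7a11 (-1.64) and Gstm6 (-1.47). The newly fallen were A2m (3.91), Hr (2.16), Grm7 (1.69) and Gabra4 (1.44). Recovered after a fall were Ccl7 (-3.26), Gpr176 (-2.78), Ccl2 (-2.76), Adh1 (-2.45), Tgfb1 (-1.14) and Gadd45a (-1.30), and after a rise Pdia2 (2.26), Kcnip1 (2.08), Atcayos (2.00) and Sycp3 (1.82). The reversed genes named were Gabrb1 (2.08), Olfm2 (-2.52), Cd44 (-2.35), Rec8 (-1.74) and Rnf128 (-1.60). Changed in the same direction but more after washout were Cdkn1c (-2.77), Stac2 (-2.42), Clca3a2 (-2.42), Snap91 (2.77), Lipg (2.16), Cdkn1b (0.80), Laptm5 (-1.69), Il7r (-1.48) and H2-D1 (-1.06), and more on testosterone Crybb1 (-2.05), Cdkn1a (-1.85) and Myh6 (4.16).

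In 15 of 228 sets of 4 libraries (6.58%, where chance gives about 1 in 20), the highest or lowest library lay far from the other 3. In the younger controls this was library 2 for Cdkn1b (196 CPM). In On T they were library 2 for Gabrb1 (3.67), Sycp3 (3.5) and Lipg (89.4), and library 3 for Cdkn1b (94.2), Cyp17a1 (1100) and Akr1c18 (1.04). In the older controls they were library 1 for Hr (8.26) and Star (2630), and library 3 for Adh1 (149) and Adgre1 (23.3). In Post T they were library 2 for Clec4e (5.26), library 3 for Atp6v1a (165) and Abcg1 (87.4), and library 4 for Gdf3 (0.789). Lipg, the highest of its On T group in library 2, lost its call without that library. Its call was also lost without other single libraries, and in 12 of 25 settings in all.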

How the results depend on the processing

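All 612 genes kept the sign of their difference in each of 25 alternatives (574 of the 574 still tested with a filter of 1 CPM). The alternatives refit the libraries in which these genes were called, so a kept sign is no separate result. The share of the 612 also called ranged from 68.6% on log2(TPM + 0.1) to 99.7% with DESeq2. Of 47 named genes called, 35 stayed called throughout, and the 12 losing a call somewhere were Gabrb1, A2m, Hr, Grm7, Kcnip1, Ccl7, Ccl2, Crybb1, Cdkn1a, Clca3a2, Lipg and Il7r. Replicate numbers are shared by the groups, and the deviations of same-numbered libraries were at most weakly correlated. Correlations were -0.019 to 0.13 in the On T cohort and 0.042 to 0.233 in the Post T cohort. Of the 8 pairs, 3 correlated best with their own number, and the pairing itself was not tested. With a replicate block 567 genes were called, 518 of them among the 612 (84.6%). DESeq2 called 999, with 216 above 0, 58 newly fallen, 111 and 124 recovered after a rise and a fall, 8 and 34 reversed after a rise and a fall, 102 larger after washout, 22 larger on testosterone, and 173 between controls. At an adjusted p of 0.01, 270 were called, 258 below and 12 above 0. At 0.1 there were 142 above 0, 39 newly fallen, 83 and 128 recovered, 6 and 47 reversed, 95 larger after washout and 19 larger on testosterone. With no filter 39 lay above 0, 17 were recovered after a rise, 1 was reversed after a rise (also 1 with the 1 CPM filter) and 20 were called between controls. On log2(TPM + 1), 43 were recovered after a fall, 10 reversed after a fall, 3 larger on testosterone and 1130 called on testosterone; on log2(TPM + 0.1), 10 and 2 for the middle pair. With age as a covariate, centred within each cohort, 1 gene was called between controls. This term leaves the age gap between the cohorts unadjusted. Without On T library 2 and Control for Post T library 1, chosen after seeing the data, 93 lay above 0, 32 were newly fallen, 1 differed between controls and 4117 between treated groups, and the lysosomal and macrophage, lysosomal enzyme and macrophage marker lists had 15, 13 and 11 called. For these shifts the cause was not tested.

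Leaving out each library in turn gave 453 (without On T library 4) to 735 (without On T library 2) called, 421 to 650 below 0 and 31 (without Post T library 1) to 85 (without On T library 2) above it. The classes ranged from 301 to 473 newly risen, 6 (without Post T library 4) to 29 (without On T library 2) newly fallen, 15 (without Control for On T library 4) to 44 recovered after a rise, 40 (without On T library 4) to 86 recovered after a fall, 0 (without Post T library 3) to 5 reversed after a rise, 12 to 23 reversed after a fall, 33 (without On T library 4) to 65 larger after washout and 5 (without Post T library 1) to 16 (without On T library 3) larger on testosterone. The On T effect had 1081 (without Control for On T library 4) to 2071 called, the Post T effect 1753 to 2568, the controls 0 to 9 and the treated groups 1757 to 3388. The uncalled difference of Fshr ranged from -0.525 to 0.004, above 0 without On T library 2 alone. With 4 mice a group, small differences of genes near 1 CPM or with variable controls could not be detected.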
